A study of Rattus norvegicus with 6 samples.

Results

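The genes described here belong to the red blood cell and were found in liver RNA: the haemoglobin chains Hba1, Hbb and Hbb-b1, the erythroid haem enzyme Alas2, and Slc4a1, the anion exchanger of the red cell membrane. They are 5 of the 30957 rows of the deposited expression table, matched by gene name, and all 5 passed the filter on low counts that left 12210 rows for testing. They were selected on measured values, since higher counts of red cell genes in the t-DHEA group had already been seen in these same libraries. Their difference between the groups is therefore given as a description with no test.

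Livers came from female Sprague Dawley rats, bought at 3 weeks of age, that had received a faecal microbiota transplant (FMT). Both groups had first been given 3 courses of an antibiotic cocktail (ampicillin, neomycin, metronidazole and vancomycin) in the drinking water, each lasting 7 days, which left them pseudo germ-free rather than germ-free. The t-PBS group then received pooled microbiota from donor rats treated with PBS, by daily gavage over 14 days. The t-DHEA group received pooled microbiota from donors treated with dehydroepiandrosterone (DHEA), an androgen precursor used to induce features of polycystic ovary syndrome in rats. Livers of 3 of the 6 rats in each group were sequenced. Rats were housed 2 to a cage, and which livers shared a cage is not given in the sources used here. Blood was drawn from the abdominal aorta under anaesthesia when treatment ended, the rats were killed by cervical dislocation and liver was snap-frozen. How much blood was drawn from each rat is not given in the sources used here, which mention no flushing of the vessels. The question put to these genes was how much red cell RNA each piece of liver held.

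Haemoglobin is built from a pair of alpha chains and a pair of beta chains, each holding a haem group. Rodents carry several nearly identical copies of each chain, in an alpha cluster on one chromosome and a beta cluster on another. In the adult, both chains are made in erythroid cells of the bone marrow, and young red cells (reticulocytes) still hold globin messenger RNA when they enter the circulation. The fetal liver makes red cells, whereas the adult liver is mainly a site where haemoglobin and haem are cleared. ALAS2 starts haem synthesis in erythroid cells, and ALAS1 has that role in hepatocytes. SLC4A1, also called band 3, exchanges chloride for bicarbonate and anchors the membrane to the skeleton beneath it.

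The promoters of 2 alpha and 2 beta chain genes are shown because counts of both chains varied together from liver to liver, and because the copies within each cluster are hard to tell apart. Each sequence holds the 130 bases before the gene's start, 5′ to 3′, from RefSeq on build GRCr8. The gene called Hba1 in the deposited table is Hba-a1 in RefSeq. Hbb and Hbb-b1 were matched by name only. The promoters were not placed on Rnor_6.0, the build of the deposited counts. The Hbb-b1 promoter may therefore belong to another copy than the Hbb-b1 row counted here. Capitals mark CCAAT and CACCC on either strand (ATTGG and GGGTG where the match is on the other strand), and ATAAA on the strand shown.
Hba-a1, chr10:15842581-15842710, minus strand: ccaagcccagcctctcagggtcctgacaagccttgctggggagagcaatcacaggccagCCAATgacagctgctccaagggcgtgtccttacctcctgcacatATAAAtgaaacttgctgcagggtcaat
Hba-a2, chr10:15829139-15829268, minus strand: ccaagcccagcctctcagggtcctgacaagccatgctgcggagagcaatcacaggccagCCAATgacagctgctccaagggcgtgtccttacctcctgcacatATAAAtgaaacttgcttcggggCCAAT
Hbb, chr1:167663722-167663851, minus strand: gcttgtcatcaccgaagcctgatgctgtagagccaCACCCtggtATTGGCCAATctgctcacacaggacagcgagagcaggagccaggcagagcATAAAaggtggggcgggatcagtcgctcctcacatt
Hbb-b1, chr1:167643521-167643650, minus strand: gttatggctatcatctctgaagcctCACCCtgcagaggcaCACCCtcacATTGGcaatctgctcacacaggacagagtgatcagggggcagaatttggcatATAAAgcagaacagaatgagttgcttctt
ATAAA lay in all 4 windows, at 27 to 23 bases before the start in both alpha genes, at 36 to 32 in Hbb and at 29 to 25 in Hbb-b1. CCAAT or its reverse lay in all 4 as well, from 71 to 67 bases before the start in Hba-a1 and Hba-a2 and from 81 to 77 in Hbb and Hbb-b1. In Hbb it directly followed a match on the opposite strand, and Hba-a2 had a further match ending at the start itself. CACCC lay in the windows of the beta genes, at 95 to 91 bases in Hbb and at 90 to 86 and 105 to 101 in Hbb-b1, whereas in the alpha genes it lay further upstream, at 149 to 145. Among the 33469 rat promoters in the same RefSeq set, 21.3% held CCAAT, 31.4% held CACCC and 14.2% held ATAAA in the same 130 bases. Over 250 bases, the 2 alpha promoters were 96.4% identical and Hbb-b1 was 97.2% identical to Hbb-b2 of the same cluster. Hbb and Hbb-b1 were 61.8% identical. These letters are matches in a sequence and say nothing about which factor was bound in these rats.

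All 6 libraries were of similar depth, with 13031722 to 14316886 counts on genes in the t-PBS group and 12348511 to 13529414 in the t-DHEA group. Values below are in CPM, in which every library's counts are rescaled to one common total and adjusted by edgeR's TMM factors, unless FPKM is named. A gene without a count could have had up to 3 counts, which is 0.210 to 0.243 CPM in these libraries, counting error only. A gene was called by the criteria of the study, a fold change above 1.2 with p below 0.05 before adjustment, in the quasi-likelihood test of edgeR. These criteria called 604 genes, or 4.95% of those tested, with 240 (1.97%) higher and 364 (2.98%) lower in t-DHEA livers. No gene passed an adjusted p of 0.05 in that test, 634 had an unadjusted p below 0.05, and DESeq2 called 25 genes at an adjusted p below 0.05. Hepatocyte markers accounted for 199176 to 216417 CPM in t-PBS and 212359 to 228885 CPM in t-DHEA livers, so the livers expressed the genes that define the labelled tissue.

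Hba1 encodes the alpha chain and lies on chromosome 10 at 15602794 to 15603649 (Rnor_6.0). It had 2351 counts in t-PBS rat 1, 2496 in rat 2 and 1476 in rat 3. In t-DHEA livers, in the same order of rats, there were 2347, 4917 and 3158. In CPM these were 165, 184 and 111 against 194, 368 and 244. The t-DHEA livers lay above the t-PBS livers on this scale, but only by the step from 184 to 194. With the library totals alone as the scale, t-PBS rat 2 reached 192 CPM and t-DHEA rat 1 reached 190 CPM, so the groups overlapped. Mean expression was 153 ± 37.6 CPM in t-PBS and 268 ± 89.5 CPM in t-DHEA (SD, n = 3), a ratio of 1.75. The fitted log2 fold change was 0.81, and it was 0.51 without t-DHEA rat 2, the liver with the most Hba1. Fewer red cells in a piece and less globin RNA per red cell cannot be told apart in bulk RNA.

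Hbb encodes the main beta chain and lies on chromosome 1 at 168971274 to 168972725. Its counts were 1457, 1090 and 775 in the t-PBS group and 1109, 2603 and 1346 in the t-DHEA group, or 102, 80.3 and 58.4 CPM against 91.5, 195 and 104 CPM. The groups overlapped, as t-DHEA rat 1 lay below t-PBS rat 1, and t-DHEA rat 2 stood highest. Means were 80.3 ± 21.8 and 130 ± 56.3 CPM (SD, n = 3). The log2 fold change of 0.70 became 0.29 when t-DHEA rat 2 was left out, and 0.91 when t-PBS rat 1 was left out.

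Hbb-b1 is a second beta chain gene, at 168945449 to 168965566 on chromosome 1, and was far less counted. It had 52, 117 and 62 counts in t-PBS livers and 106, 198 and 138 in t-DHEA livers, or 3.64, 8.62 and 4.68 CPM against 8.74, 14.8 and 10.7 CPM. The t-DHEA livers lay above the t-PBS livers by the narrow step from 8.62 to 8.74 CPM, and with the library totals as the scale the groups overlapped. Mean expression was 5.65 ± 2.63 and 11.4 ± 3.10 CPM (SD, n = 3). Its log2 fold change was 1.02, with a range of 0.78 to 1.46 when each liver was left out in turn. The lowest of these was without t-PBS rat 1 and the highest without t-PBS rat 2.

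Alas2, at 23167696 to 23187341 on chromosome X, was near the limit of this depth, with 38, 22 and 23 counts in t-PBS livers and 18, 55 and 29 in t-DHEA livers. These were 2.66, 1.62 and 1.73 CPM against 1.49, 4.11 and 2.24 CPM. The groups overlapped: the lowest liver and the highest liver were both from the t-DHEA group. Mean expression was 2.01 ± 0.571 in t-PBS and 2.61 ± 1.35 CPM in t-DHEA (SD, n = 3). The log2 fold change was 0.38, and it was -0.10 without t-DHEA rat 2, so its sign rested on that liver.

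Slc4a1, at 90296141 to 90312386 on chromosome 10, had 155, 82 and 114 counts in t-PBS livers and 100, 110 and 94 counts in t-DHEA livers. In CPM these were 10.9, 6.04 and 8.60 against 8.25, 8.22 and 7.26. The t-DHEA livers were close to each other and inside the t-PBS range, and t-DHEA rat 2, highest for the other 4 genes, was not high for this one. Means were 8.50 ± 2.41 and 7.91 ± 0.566 CPM (SD, n = 3). The log2 fold change was -0.11, and was 0.11 without t-PBS rat 1.

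**Figure D1:**
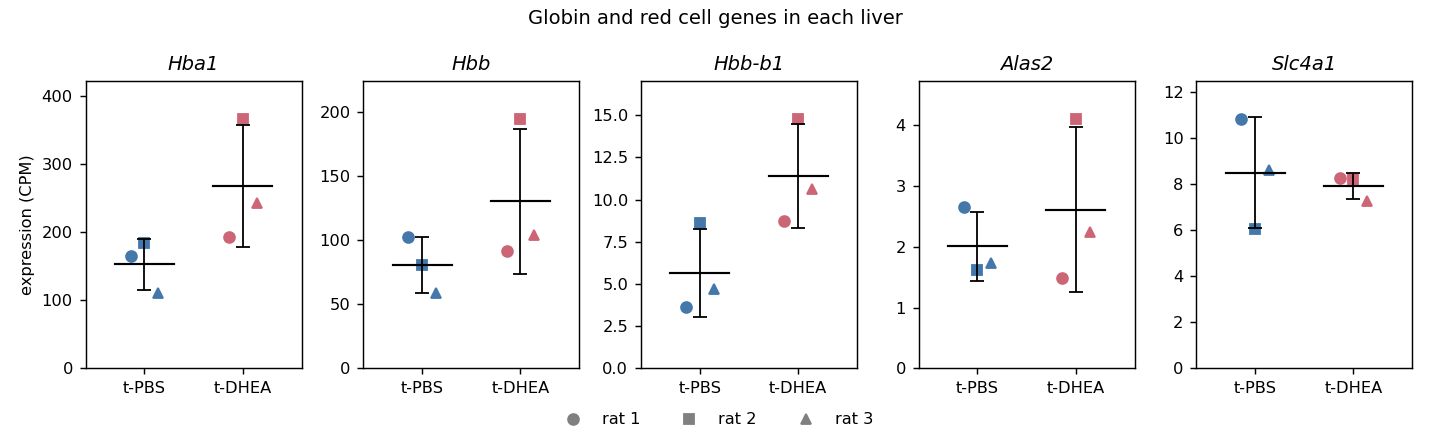
Expression of the 5 genes in CPM (vertical axes, linear and from 0, a separate scale for each gene) in the 3 t-PBS livers (blue) and 3 t-DHEA livers (red), with symbols for rats 1, 2 and 3. Horizontal lines are group means and bars are the SD (n = 3). t-DHEA rat 2 is highest for Hba1, Hbb, Hbb-b1 and Alas2, at 368, 195, 14.8 and 4.11 CPM, but not for Slc4a1.

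Of the 5 genes, Hba1 and Hbb-b1 had every t-DHEA liver above every t-PBS liver, a pattern that 4.66% of all genes tested showed, and none had every t-DHEA liver below, which 5.42% showed. As these genes were chosen from the same contrast, nothing is read from that count. The scale matters to it: on library totals, 386 genes had every t-DHEA liver above and 964 had every one below, and none of the 5 genes was then among them. Leaving out t-DHEA rat 2 lowered the log2 fold changes of Hba1, Hbb, Hbb-b1 and Alas2 to 0.51, 0.29, 0.79 and -0.10, and that of Slc4a1 from -0.11 to -0.13.

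**Figure D2:**
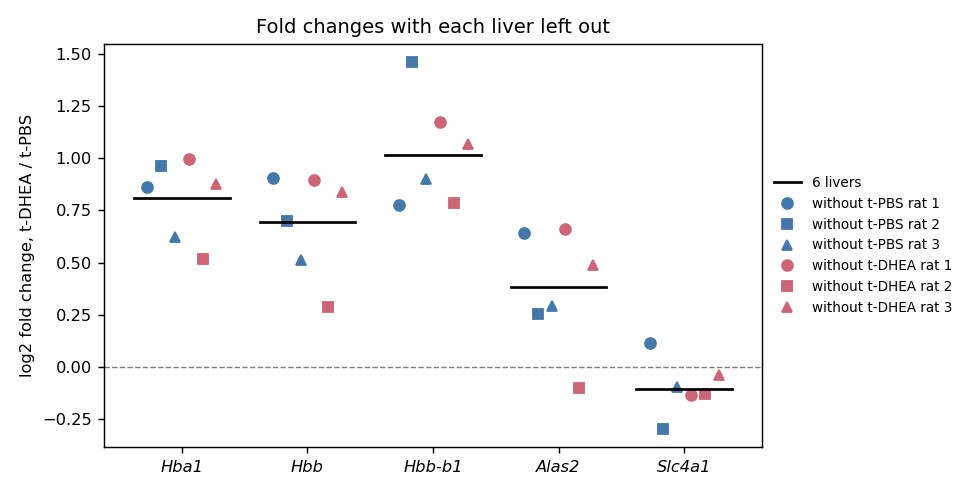
Fitted log2 fold change of t-DHEA over t-PBS (vertical axis) for each of the 5 genes, with all 6 livers (black line) and with each liver left out in turn (points, coloured by the group of the liver left out, with symbols for rats 1, 2 and 3). The red square, without t-DHEA rat 2, is the lowest point for Hba1, Hbb and Alas2, and crosses 0 for Alas2.

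Levels between genes were compared per length, in FPKM. Hba1 stood first at 280 ± 73.2 FPKM in t-PBS and 477 ± 160 FPKM in t-DHEA livers, and Hbb second at 123 ± 32.9 and 194 ± 84.6 FPKM (SD, n = 3). Hbb-b1 followed at 3.85 ± 1.89 and 7.51 ± 2.06 FPKM. Slc4a1 at 1.32 ± 0.350 and 1.21 ± 0.0829 FPKM and Alas2 at 1.16 ± 0.311 and 1.48 ± 0.767 FPKM were neighbours whose order differed between the groups, and they differed by less than their spread. Ranked by FPKM within a liver, Hba1 was between rank 83 in t-DHEA rat 2 and rank 291 in t-PBS rat 3, and Hbb between rank 194 and rank 659 in the same livers. Hba1 and Hbb RNA was thus well inside the abundant part of every liver's profile. Hbb-b1 lay far lower, between rank 4179 in t-DHEA rat 2 and rank 8678 in t-PBS rat 1. Alas2 and Slc4a1 stood no higher than rank 8657.

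The 5 genes together took 0.0283%, 0.0292% and 0.0185% of all counts in the t-PBS group and 0.0298%, 0.0583% and 0.0364% in the t-DHEA group. The lowest t-DHEA share lay just above the highest t-PBS share, with 95% exact Clopper-Pearson intervals that overlapped, 0.0288% to 0.0308% against 0.0283% to 0.0302%. Such intervals cover counting error only. The table also held globin rows that the 5 names do not cover. With all haemoglobin rows added up, the shares were 0.0381%, 0.0456% and 0.0263% in t-PBS livers and 0.0454%, 0.0883% and 0.0585% in t-DHEA livers. On this fuller sum the groups overlapped, since t-DHEA rat 1 held as large a share as t-PBS rat 2, with intervals of 0.0443% to 0.0466% and 0.0444% to 0.0468%. With the TMM factors these became 438 CPM in t-PBS rat 2 and 463 CPM in t-DHEA rat 1, so whether the groups overlapped depended on the scaling. The means were 0.0366% ± 0.00974 in t-PBS and 0.0641% ± 0.0220 in t-DHEA livers (SD, n = 3).

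There were 12 haemoglobin rows in the table, of which 9 had a count and 6 passed the filter. Hba2, a second alpha chain gene at 15589364 to 15590220 on chromosome 10, had 1264, 1492 and 856 counts in t-PBS livers and 1371, 3172 and 2070 in t-DHEA livers. It met the calling criteria, with a log2 fold change of 0.96 ± 0.27 (SE) and an adjusted p of 0.805 by edgeR. The call held in 6 of 6 leave-one-out fits, with 0.64 when t-DHEA rat 2 was omitted, but its groups overlapped on library totals. Hba2 is a near-identical copy of Hba1, so how reads were divided between them is uncertain and the pair are not separate evidence.

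Both of the other rows that passed the filter are annotated as haemoglobin subunit beta-2. AC113925.2, which lies inside the span of Hbb-b1, had 110, 425 and 149 counts in t-PBS and 353, 538 and 511 counts in t-DHEA livers. The groups overlapped, because t-PBS rat 2 exceeded t-DHEA rat 1. AABR07024041.1, on an unplaced scaffold, had 181, 302 and 158 against 310, 523 and 428 counts, and its t-DHEA livers lay above its t-PBS livers on both scales. The fitted log2 fold changes were 1.12 and 1.06, and without t-DHEA rat 2 they were 1.04 and 0.91.

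The remaining rows did not pass the filter. The alpha globin row LOC287167 had 31, 18 and 0 counts in t-PBS and 9, 0 and 0 counts in t-DHEA livers, and so, unlike the rows above, had more counts in the t-PBS group. In t-PBS rat 1 it stood at 5.05 FPKM, above Hbb-b1 at 2.42 FPKM. The theta chain gene Hbq1b had 0, 1 and 0 against 6, 1 and 0 counts, and Hbe1, an embryonic epsilon chain gene, had 4, 0 and 1 counts in t-PBS and none in t-DHEA livers. The embryonic and fetal chain genes Hbz, Hbe2 and Hbg1 had no count in any liver, which allows up to 3 counts in each.

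**Figure D3:**
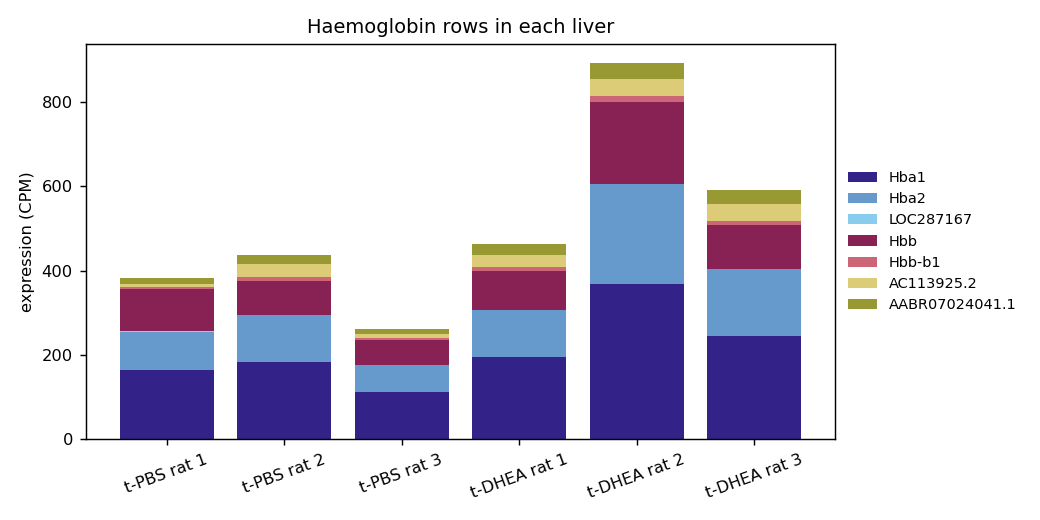
Stacked bars of the CPM of 7 haemoglobin rows in each of the 6 livers (vertical axis in CPM, from 0), with alpha chain rows in blues at the bottom and beta chain rows above them. The bar of t-DHEA rat 2 is the tallest and that of t-PBS rat 3 the shortest, and the beta-2 row AC113925.2 is thin in t-PBS rat 1, with 7.70 CPM.

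Within each liver the alpha and beta rows kept nearly the same proportion. The ratio of summed alpha counts to summed beta counts was 2.03, 2.07 and 2.04 in t-PBS livers and 1.98, 2.09 and 2.16 in t-DHEA livers. From lowest to highest it varied 1.09-fold, while the share of haemoglobin rows in the counts ran from 0.0263% to 0.0883%. Alpha rows made up 66.5% to 68.3% of the alpha and beta counts, and the exact 95% intervals of the lowest liver, 65.2% to 67.7%, and of the highest, 67.3% to 69.4%, overlapped. The rows of the alpha cluster lie on chromosome 10, and the placed rows of the beta cluster on chromosome 1.

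The split among copies of the same chain was less even. Hba1 had 1.86, 1.67 and 1.72 counts for each count of Hba2 in t-PBS livers and 1.71, 1.55 and 1.53 in t-DHEA livers, which overlapped between the groups. Hbb made up 80.9%, 56.4% and 67.7% of the beta rows in t-PBS livers and 59.1%, 67.4% and 55.6% in t-DHEA livers. The exact 95% interval for t-PBS rat 1, 79.1% to 82.7%, lay clear of that of every other liver, the nearest being 64.9% to 70.4% in t-PBS rat 3. Counts of AC113925.2 per count of Hbb ranged from 0.0755 in t-PBS rat 1 to 0.390 in t-PBS rat 2, a 5.16-fold span within one group. How reads matching several copies were divided among the rows was not tested.

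Alas2 and Slc4a1 were set against the haemoglobin counts of the same liver. Per 1000 haemoglobin counts, Alas2 had 6.97, 3.70 and 6.61 counts in t-PBS livers and 3.21, 4.60 and 3.79 in t-DHEA livers. These overlapped between the groups, and rested on 18 to 55 counts of Alas2 per liver. Slc4a1 had 28.4, 13.8 and 32.8 counts per 1000 haemoglobin counts in t-PBS livers and 17.8, 9.20 and 12.3 in t-DHEA livers, a 3.56-fold span. These overlapped between the groups as well. Slc4a1 itself ran only from 6.04 to 10.9 CPM, while the summed haemoglobin rows ran from 262 to 893 CPM. The order of the ratios therefore comes largely from their denominator. On that account t-DHEA rat 2, with the most haemoglobin, had the lowest ratio, and t-PBS rat 3, with the least, had the highest. With 3 livers against 3 an exact two-sided permutation test cannot give a p below 0.1, and none was run on these ratios.

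**Figure D4:**
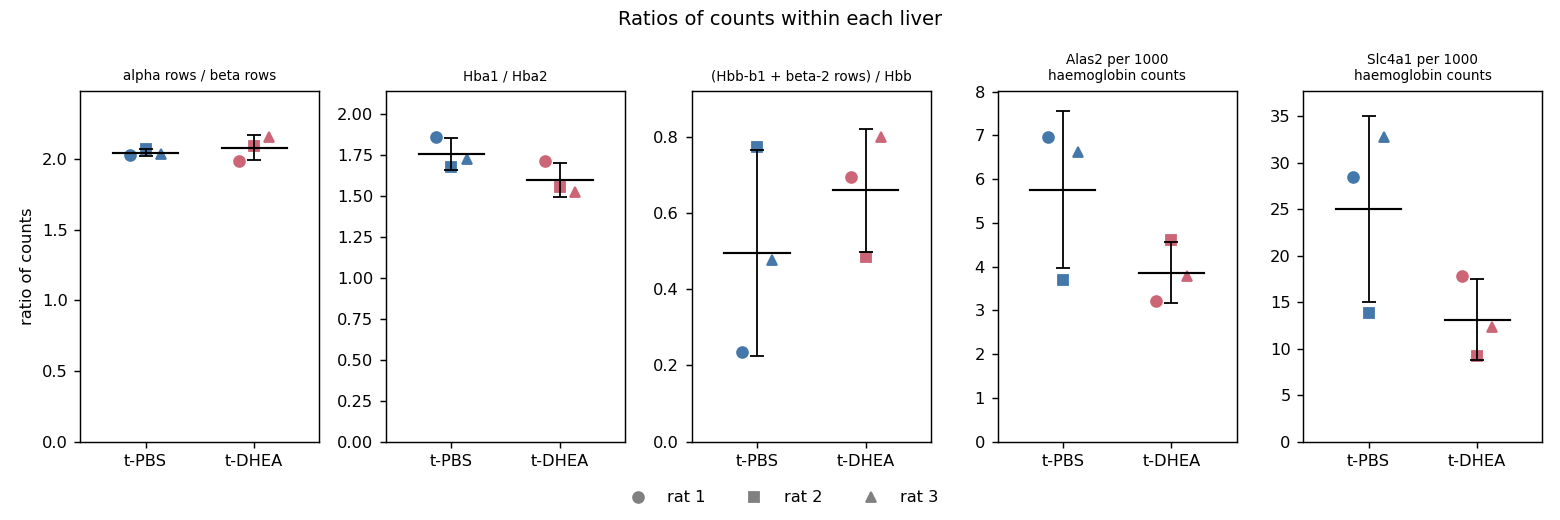
Ratios of counts within each liver (vertical axes from 0, a separate scale in each panel) for the 3 t-PBS (blue) and 3 t-DHEA livers (red), with the group mean and SD (n = 3) as a line and bar. Alpha to beta rows stay between 1.98 and 2.16, whereas the ratio of the minor beta rows (Hbb-b1 and both beta-2 rows) to Hbb spans 0.235 to 0.800 and Slc4a1 per 1000 haemoglobin counts spans 9.20 to 32.8.

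Genes that share the cell of origin of these 5 were followed by lists of red cell genes. Across the lists for other globins, haem synthesis, the red cell membrane, red cell enzymes and erythroid regulators, 66 of 102 rows passed the filter, and 4 were called higher and 4 lower (12.1% against 4.95% of all genes tested), the median log2 fold change being 0.05. The 4 higher were Hba2, Car2, Alox15 and Nfe2, and the 4 lower were Kcnn4, Aqp1, Isg20 and Lmo2. As Hba2 is a copy of a gene chosen for this difference, the count without it, added after seeing the data, was 7 of 65, or 10.8%. The median over all genes tested was 0.00131, and 50.3% of them had a log2 fold change above 0. Several of these genes are also used by liver or immune cells, so a list here is not specific to red cells.

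Among 19 haem synthesis and mitochondrial iron genes apart from Alas2, none was called in either direction, and the median log2 fold change was 0.06. Alas1, the hepatocyte counterpart of Alas2, had 163 ± 15.5 CPM in t-PBS and 193 ± 11.4 CPM in t-DHEA livers (SD, n = 3). Its t-DHEA livers lay above its t-PBS livers, with a log2 fold change of 0.24, under the fold needed for a call. The 2 other most abundant genes of the list were Clpx, a mitochondrial chaperone that activates ALAS, at -0.13, and the mitochondrial carrier Slc25a39 at -0.07 on the log2 scale.

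Of 22 red cell membrane and skeleton genes other than Slc4a1, 11 passed the filter, with 0 called higher, 2 called lower and -0.30 as the median log2 fold change. That median was -0.13 when t-PBS rat 1 and -0.17 when t-PBS rat 2 was left out, and -0.12 with limma on log2(FPKM + 1). The summed expression of this list was 110 to 121 CPM in t-PBS and 101 to 108 CPM in t-DHEA livers. Every t-DHEA sum thus lay below every t-PBS sum, the opposite direction to Hba1. Why this list and the globins differed in direction was not tested. Aqp1, the water channel of red cells that is also made by endothelial and bile duct cells, fell from 18.9 ± 3.72 to 11.8 ± 1.79 CPM (SD, n = 3). Kcnn4, a calcium-activated potassium channel, fell from 1.05 ± 0.373 to 0.447 ± 0.214 CPM, a call that was lost on leaving out t-PBS rat 2, t-DHEA rat 2 or t-DHEA rat 3. The most abundant members, Epb4.1 (protein 4.1) and Gypc (glycophorin C), were not called, at -0.04 and 0.18. Ank1 (ankyrin) and Epb42 (protein 4.2), which bind band 3, were almost absent, with at most 2 and 3 counts in a liver. Rhag, Kel and Ermap, which carry blood group antigens or their partners, had no count in any liver.

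The list of red cell enzymes and genes of reticulocyte maturation had 19 of 29 genes tested, 2 called higher, 1 called lower and a median of 0.06. The median turned to -0.05 when t-DHEA rat 2 was left out, and was 0.14 when t-PBS rat 3 was. Car2, a carbonic anhydrase, rose from 17.8 ± 1.32 to 27.4 ± 6.56 CPM (SD, n = 3), with 16.3, 18.9 and 18.2 CPM in t-PBS livers and 19.9, 31.9 and 30.4 CPM in t-DHEA livers. Alox15, a lipoxygenase that breaks down organelles in reticulocytes and is also made by myeloid cells, rose from 0.776 ± 0.151 to 2.10 ± 0.732 CPM. Its counts were 12, 12 and 8 against 19, 24 and 38, so t-DHEA rat 3 and not rat 2 was highest. Isg20, an exonuclease induced by interferon, fell from 3.39 ± 1.26 to 1.07 ± 0.440 CPM. The most abundant members, Cat (catalase), Hagh and Slc6a9, were not called. Car1 and Trim10 had no count in any liver, and Ahsp, which encodes the chaperone of free alpha chains, had at most 1. Hemgn, an erythroid nuclear factor chosen here after its values were seen, had 0, 0 and 0 counts in t-PBS and 3, 2 and 3 counts in t-DHEA livers, all within the limit that a count of 0 allows.

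Erythroid transcription factors and receptors gave 1 gene called higher and 1 lower among 15 of 22 tested, with a median of 0.11. Nfe2, a factor that drives globin and platelet genes, had 48, 33 and 29 counts in t-PBS and 33, 146 and 108 counts in t-DHEA livers. Its level went from 2.66 ± 0.620 to 7.32 ± 4.19 CPM (SD, n = 3), a log2 fold change of 1.46 ± 0.44 (SE). It was called in all 6 fits that left out a liver, although t-DHEA rat 1 lay within the t-PBS range. Like the globins it was highest in t-DHEA rat 2. Lmo2, a partner of erythroid factors that endothelium also makes, had a log2 fold change of -0.36 and was not called once any one liver was left out. Hes6, Zfpm1 and Ldb1, the most abundant of the list, were not called. Gata1, the master factor of the erythroid lineage, had no count in any liver, Klf1 had at most 3, and Epor, the erythropoietin receptor, at most 5.

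Genes that clear haemoglobin and haem showed no called change in 14 genes tested of 15, with a median of 0.08. Transferrin (Tf) was at 36461 ± 2330 CPM in t-PBS and 39019 ± 3587 CPM in t-DHEA livers, hemopexin (Hpx), which binds free haem, at 5360 ± 837 and 6031 ± 1004 CPM, and haptoglobin (Hp), which binds free haemoglobin, at 4530 ± 534 and 5133 ± 740 CPM (SD, n = 3). All 3 overlapped between the groups.

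Markers of other blood cells were read in the same livers. The lists for platelets, neutrophils, lymphocytes and monocytes held 94 rows, of which 37 passed the filter, 3 were called higher and 4 lower (18.9%, against 4.95% of all genes tested), with a median of -0.05. Summed platelet markers ran from 37.2 to 41.8 CPM in t-PBS and from 37.6 to 39.9 CPM in t-DHEA livers, and 0 of 5 tested were called. Of their defining genes, Ppbp and Gp1ba had at most 2 and 3 counts in a liver. Itga2b, Itgb3 and Clec1b, the most abundant of the list, were not called.

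Neutrophil markers summed to 187 to 214 CPM and 182 to 211 CPM, most of it from Ceacam1, which hepatocytes also make, and Hdc was not called. S100a9 rose by 0.94 on the log2 scale, from 0.702 ± 0.198 to 1.37 ± 0.529 CPM, a call lost without t-PBS rat 2, t-PBS rat 3 or t-DHEA rat 1. Lcn2 fell from 6.44 ± 2.0 to 3.09 ± 1.01 CPM (SD, n = 3). Lymphocyte markers summed to 62.9 to 64.4 CPM and 60.8 to 67.9 CPM, with Cd22 and Ccl5 higher and Gzma lower among 15 tested, while Cd4 and Prf1 were not called. The call of Ccl5 was lost without t-PBS rat 1, t-PBS rat 2, t-DHEA rat 2 or t-DHEA rat 3. Monocyte markers summed to 161 to 194 CPM in t-PBS and 143 to 151 CPM in t-DHEA livers, with Cd14 and Lyz2 lower among 11 tested and Csf1r not called. The call of Cd14 was lost without t-PBS rat 1, t-PBS rat 3, t-DHEA rat 2 or t-DHEA rat 3. No list of other blood cells was highest in t-DHEA rat 2, the liver with the most haemoglobin. Most genes of these lists did not pass the filter, and the lists were not restricted to genes of circulating cells. Their sums therefore do not measure how much blood a piece of liver held.

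Markers of the liver surface were read as well. Several markers of the mesothelium, the sheet that covers the liver, were lower in t-DHEA livers, with 6 of 9 tested called lower, against 2.98% of all genes tested, and a median of -1.73. Their summed expression, most of it from Krt8, overlapped between the groups, at 173 to 258 CPM in t-PBS and 146 to 212 CPM in t-DHEA livers. Msln (mesothelin) went from 14.8 ± 1.47 to 4.05 ± 3.26 CPM (SD, n = 3), with 1.12 CPM in t-DHEA rat 2, its lowest liver. Krt8 and Gpm6a, also among the most abundant of that list, were not called, and Krt7, Krt19, Muc16, Upk1b and Upk3b were lower. The calls of Krt7 and Upk1b were lost once t-PBS rat 3 or t-DHEA rat 1 was left out, and that of Upk1b also without t-DHEA rat 2. Whether the keratins of this list came from mesothelium or from other epithelial cells was not tested. The part of this surface tissue in the red cell values was not tested either. Among 22 hepatocyte genes only Tat, which degrades tyrosine, was called, and it was higher at 888 ± 225 against 554 ± 70.4 CPM, whereas Alb, Tf and Serpina1 were not.

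**Figure D5:**
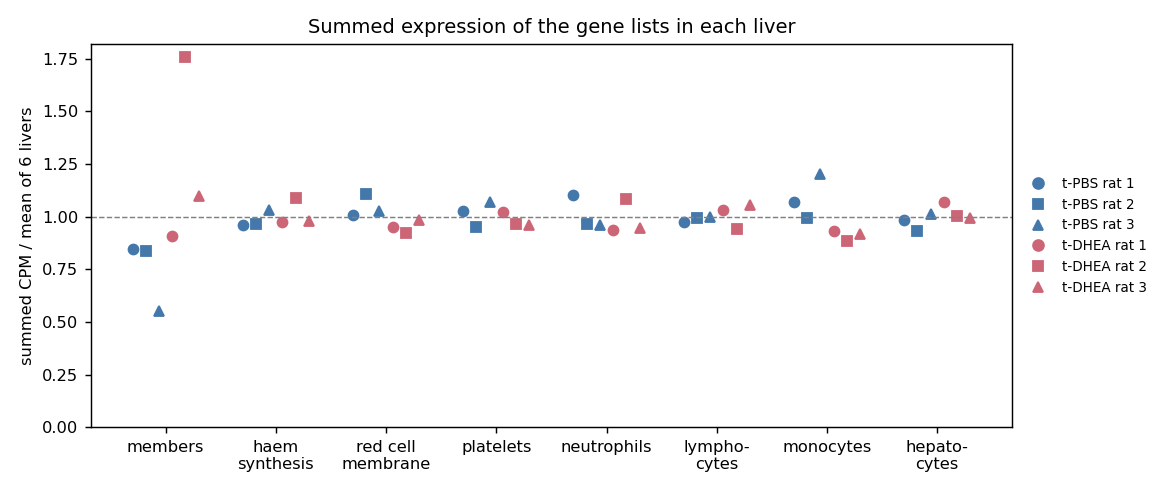
Summed CPM of each gene list in each liver, divided by the mean of the 6 livers for that list (vertical axis, from 0; the dashed line marks 1), for t-PBS (blue) and t-DHEA livers (red), with symbols for rats 1, 2 and 3. The 5 globin and red cell genes spread from 185 CPM in t-PBS rat 3 to 589 CPM in t-DHEA rat 2, whereas platelet and lymphocyte markers stay close to the line in all 6 livers.

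The 2 nearest genes with a count on each side of each locus, globins left aside, were read from the same table. Around Hba1, the neighbours with a count other than globins were Mrpl28, Luc7l, Nprl3 and Mpg, and none was called, with log2 fold changes of -0.19, -0.16, 0.13 and -0.02. Nprl3 carries within its introns the distant enhancers of the alpha cluster in mammals, and it was not called in these livers. Around the beta cluster, the nearest such genes were distant, from 437 kb (Trim6) to 1121 kb (Trim68) away from Hbb. Of these, Trim68, Olr59 and Trim34 were not called and Trim6 had at most 5 counts in a liver. Around Slc4a1, Ubtf, Atxn7l3 and Slc25a39 were not called and Rundc3a had at most 3 counts in a liver. Beside Alas2, Apex2 and the unnamed rows AABR07037528.1 and AABR07037536.1 were not called, but Pfkfb1, 23.4 kb before it, was lower, with 484, 867 and 504 counts in t-PBS and 261, 219 and 408 counts in t-DHEA livers. PFKFB1 sets the level of fructose 2,6-bisphosphate in liver, and its log2 fold change was -0.97 ± 0.28 (SE).

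To find genes with a like pattern, the log2 CPM of the 5 genes was standardised and averaged in each liver, and each of 10851 named genes was compared with that mean by Pearson's r over the 6 livers. The mean was 0.06, -0.54 and -0.79 in t-PBS livers and -0.17, 1.27 and 0.17 in t-DHEA livers, so the groups overlapped. It lay closest to Hbb (r = 0.99), then Hba1 (0.91), Alas2 (0.89) and Hbb-b1 (0.61), with Slc4a1 at 0.18. Each of these genes is part of that mean, which by itself raises its r. The 10 most alike were Pik3ap1, Rtn4rl2, Cabp2, Pja1, Apba2, Arhgap35, Ddost, Gjc3, Ap1s1 and Tmem185a, with r from 0.97 to 0.99, and 98 genes reached 0.9. The 6 points share their library and scaling factor. A search of 10851 genes over only 6 points returns high values of r among unrelated genes too. How many of the 98 are of that kind was not tested, so the 10 are not shown to be linked to red cells. Most of the 10 varied little: Pik3ap1 was at 84.4, 77.3 and 76.3 CPM in t-PBS and 80.5, 97.3 and 86.0 CPM in t-DHEA livers. Apba2 and Gjc3 were called higher, with log2 fold changes of 1.10 and 0.50, and the others were not called. These calls held in only 3 and 2 of 6 leave-one-out fits. As the 10 were picked by likeness to genes chosen from this contrast, nothing is read from the calls, against 4.95% of all genes tested. The 5 genes themselves and rows named only by an identifier, both beta-2 rows among them, were not candidates in this search. Hba2 was a candidate and was not among the 10, nor was any red cell gene of the lists above.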

How the data were processed

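Raw counts per gene were used as deposited. The authors filtered reads with Seqtk, mapped them to Rnor_6.0 with HISAT2 2.0.4 and made gene counts and FPKM values with StringTie 1.3.0, from paired-end TruSeq libraries; the annotation release, strandedness and treatment of reads matching several copies are not given in the sources used here. The deposited FPKM values were used only to compare levels between genes and in 2 alternative tests. The study's edgeR run took FPKM as input, and here it took the deposited counts.

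Counts were scaled by TMM, filtered with filterByExpr and tested with the quasi-likelihood test of edgeR 4.0.16 in R 4.3.3, with Benjamini-Hochberg adjustment over 12210 genes. Log2 CPM used a prior count of 0.5. SciPy 1.17.1 gave exact intervals. Total counts ran from 12348511 to 14316886. Lists held 281 entries, of which 257 matched a row, 5 of them by an older symbol. By rule, named genes were the 5 genes, other globin rows with a count, and called genes and the 3 most abundant of each list. The 2 nearest genes with a count on each side and the 10 most alike were named too. List genes with few or no counts, and globin rows with none, were named outside this rule and do not stand for their lists. Among them, Hemgn is marked in the text. The genes and lists were chosen with earlier results of these data known. Labels do not say that rats came from separate litters or cages, so p-values measure the spread between these livers. Promoters came from a RefSeq set; that of Slc4a1 was not used. One red cell list gene, below the filter and so not among the tests, is not reported here. Alternatives were DESeq2 1.42.0, other normalizations and filters, limma 3.58.1 on log2 FPKM, rat number as a block and each liver left out.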

Additional observations from a re-analysis of the deposited data

How the results depend on the processing

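The log2 fold changes of Hba1, Hbb, Hbb-b1, Alas2 and Slc4a1 were recomputed under 15 alternatives each, and all 75 values moved by less than 1 SD of the livers within groups, which is wide here: Alas2 and Slc4a1 changed sign. With each liver left out they ranged from 0.51 to 1.0 for Hba1, 0.29 to 0.91 for Hbb, 0.78 to 1.46 for Hbb-b1, -0.10 to 0.66 for Alas2 and -0.30 to 0.11 for Slc4a1. Genes called higher numbered 240, but 157 on library totals and 147 with limma on log2(FPKM + 1), with 470 and 390 called lower, so the share called higher depended on the scaling. At an adjusted p below 0.05 edgeR called 0 genes instead of 604. With at least 10 counts in every liver 5 red cell list genes were called instead of 8, and with no filter 13 genes of the other blood cell lists instead of 7; the first tests fewer and the second more genes. With a liver left out, red cell list calls ranged from 6, on omitting t-PBS rat 2, up to 11, on omitting t-PBS rat 3. Among list genes named in the text, 29 values lost their call in some alternative and none reversed. List medians moved by over 1 SD in 36 of 180 values. Their ranges were -0.41 to -0.12 for the red cell membrane, -0.05 to 0.14 for red cell enzymes, 0.04 to 0.68 for other globins, -0.27 to -0.05 for platelets, -0.05 to 0.68 for neutrophils, -0.36 to -0.04 for monocytes, -0.04 to 0.08 for hepatocytes and -2.70 to -0.59 for mesothelium.

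Rat numbers are shared by the groups, but same-numbered rats did not deviate together (r of -0.0567, -0.0587 and -0.0550 over 12210 genes), so the numbers do not pair the livers. With the replicate block 212 genes were called higher and 327 lower, with 7 calls in the red cell lists, and the log2 fold changes were 0.79 for Hba1, 0.65 for Hbb, 1.06 for Hbb-b1, 0.32 for Alas2 and -0.07 for Slc4a1. No t-PBS liver correlated best with its own number. t-PBS rat 1 went best with t-DHEA rat 2 (r = 0.113) and t-PBS rat 2 with t-DHEA rat 3 (0.116). For t-PBS rat 3 the best was t-DHEA rat 1 (0.106). Whether another pairing lies behind these values was not tested. Depth limited Alas2, with 18 to 55 counts, and the erythroid genes with 3 counts or fewer.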
